A study of Mus musculus with 6 samples.

Results

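Proteasome genes were taken as all listed genes whose mouse symbol begins with Psma, Psmb, Psmc, Psmd, Psme, Psmf or Psmg and goes on with a digit, leaving out symbols that end in -ps. The rule found 51 of the 24532 genes listed in the deposited tables and left out 6 pseudogene symbols. Of the 51 members, 49 encode proteasome subunits, regulators or assembly factors. The other 2 are named alike but encode no subunit and were kept apart: Psmc3ip, a cofactor of meiotic recombination, and Psme3ip1, named as a partner of Psme3. Cells of 3 populations were sorted from the bone marrow of C57BL/6J mice, and each population gave 2 sequenced libraries (6 in all), described by the series as biological duplicates. MAR1INT and MAR1HI cells carried CD200R3 and lacked lineage markers, CD34 and c-Kit, and they were told apart by an intermediate or a high level of MAR1, an antibody that binds FcεRIα, a chain of the IgE receptor of basophils and mast cells. BaP cells, labelled as basophil precursors, carried CD34 and MAR1 and lacked lineage markers and c-Kit. The age and sex of the mice and whether animals were pooled are not given in the sources used here, so the p-values measure the spread between these libraries. RNA was total RNA extracted with TRIzol LS, and the libraries came from the SureSelectXT RNA direct kit, which enriches transcripts with capture probes.

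The proteasome is the protease that breaks down proteins tagged with ubiquitin. Its core particle is a barrel of alpha rings and beta rings. The beta rings hold the catalytic subunits encoded by Psmb5, Psmb6 and Psmb7. In blood cells, and in other cells after interferon gamma, newly made cores can take up the products of Psmb8, Psmb9 and Psmb10 in place of those of Psmb5, Psmb6 and Psmb7, which gives the immunoproteasome. Its peptides are loaded more readily onto class I molecules. The core is opened by a cap of ATPases (Psmc genes) and non-ATPase subunits (Psmd genes), or by activators (Psme genes), and it is put together by dedicated chaperones (Psmg genes and some Psmd genes).

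The promoter windows of the catalytic genes are shown because the comparisons that follow set the constitutive against the immunoproteasome genes. Each window runs from 250 bases before the RefSeq start to 50 bases after it (RefSeq, GRCm38.p6, which has the coordinates of mm10), written 5′ to 3′ on the strand of the gene. Capitals mark matches on either strand to TGACNNNGC (the kind of element that Nfe2l1 and Nfe2l2 bind), GAAA followed after 2 bases of any kind by GAAA (the core of an interferon response element), TTCNNNGAA (a STAT element) or GGG followed after 5 bases of any kind by CC (an NF-kappaB-like element). The tables hold no window for Psmb7.
Psmb5, chr14:54617946-54618245, minus strand: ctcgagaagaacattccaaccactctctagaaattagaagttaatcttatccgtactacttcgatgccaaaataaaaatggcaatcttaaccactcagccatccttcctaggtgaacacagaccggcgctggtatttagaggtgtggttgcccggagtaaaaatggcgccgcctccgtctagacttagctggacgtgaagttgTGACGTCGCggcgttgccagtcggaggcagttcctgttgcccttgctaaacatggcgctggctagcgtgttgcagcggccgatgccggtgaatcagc
Psmb6, chr11:70525107-70525406, plus strand: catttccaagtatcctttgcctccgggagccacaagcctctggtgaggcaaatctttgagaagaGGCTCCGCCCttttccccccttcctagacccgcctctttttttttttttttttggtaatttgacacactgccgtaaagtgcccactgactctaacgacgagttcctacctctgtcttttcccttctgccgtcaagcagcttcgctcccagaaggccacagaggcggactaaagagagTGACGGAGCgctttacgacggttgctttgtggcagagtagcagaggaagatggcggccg
Psmb8, chr17:34197945-34198244, plus strand: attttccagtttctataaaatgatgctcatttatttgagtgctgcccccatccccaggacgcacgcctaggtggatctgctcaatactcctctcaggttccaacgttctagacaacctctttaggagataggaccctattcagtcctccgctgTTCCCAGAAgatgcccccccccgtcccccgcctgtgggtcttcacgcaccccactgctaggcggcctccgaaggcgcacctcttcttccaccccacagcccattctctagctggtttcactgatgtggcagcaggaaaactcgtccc
Psmb9, chr17:34187281-34187580, minus strand: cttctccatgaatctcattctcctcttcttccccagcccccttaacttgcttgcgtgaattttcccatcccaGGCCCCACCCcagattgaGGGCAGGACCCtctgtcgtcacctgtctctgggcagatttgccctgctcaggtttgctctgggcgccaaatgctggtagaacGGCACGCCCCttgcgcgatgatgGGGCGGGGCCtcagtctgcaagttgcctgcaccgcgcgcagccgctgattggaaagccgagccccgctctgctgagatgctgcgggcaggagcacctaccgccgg
Psmb10, chr8:105938343-105938642, minus strand: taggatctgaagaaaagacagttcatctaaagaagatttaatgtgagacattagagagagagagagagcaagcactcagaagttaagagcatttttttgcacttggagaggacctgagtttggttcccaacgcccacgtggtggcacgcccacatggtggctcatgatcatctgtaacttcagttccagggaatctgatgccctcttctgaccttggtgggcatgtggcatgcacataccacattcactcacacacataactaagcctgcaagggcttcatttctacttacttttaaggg

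Psmb5 and Psmb6, both constitutive, each held 1 TGACNNNGC match, TGACGTCGC from base -47 in Psmb5 and TGACGGAGC from base -9 in Psmb6, counted from the RefSeq start. Psmb6 also held 1 match to the NF-kappaB-like letters. Psmb8 held 1 TTCNNNGAA match, TTCCCAGAA from base -97. Psmb9 held 5 matches to the NF-kappaB-like letters, of which 2 overlap each other, and Psmb10 held none of the motifs. Windows were found for 43 of the 51 members (47 windows), and TGACNNNGC lay in 12.8% of them, beside 12.4% of all 32851 promoter windows. The interferon core lay in 10.6% of member windows (Psmb3, Psmd4, Psmd9, Psme1 and Psmg4) and in 3.44% of all windows. TTCNNNGAA lay in 6.38% and 8.30%, the NF-kappaB-like letters in 57.4% and 50.8%, and CCAAT, which the capitals do not mark, in 34.0% and 37.4%. The median member window held 19 CpG dinucleotides, beside 7 over all windows. A match is a run of letters and was not tested for binding.

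The Psmb9 window reaches the first bases of Tap1, which encodes a subunit of the peptide transporter of class I loading. On chromosome 17 (mm10), Psmb9 (34182099 to 34187330, minus strand) and Tap1 (34187556 to 34197225, plus strand) lie 225 bases apart and point away from each other. Psmb8 (34198195 to 34201454, plus strand) follows 969 bases after Tap1, and Tap2 (34204479 to 34216321, plus strand) 3024 bases after Psmb8. The other catalytic genes lie elsewhere: Psmb5 on chromosome 14 (54614120 to 54617995), Psmb6 on chromosome 11 (70525357 to 70527858), Psmb7 on chromosome 2 (38588046 to 38643906) and Psmb10 on chromosome 8 (105935728 to 105938392).

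The libraries were similar in depth, with between 4.75 and 5.28 gigabases of aligned sequence implied by the tables. MAR1HI replicate 2 stood apart: its median-of-ratios factor was 1.35, while those of the other 5 libraries lay between 0.900 and 0.976. Histone genes took 8.23% and 7.83% of all TPM in MAR1INT, 18.6% and 12.03% in MAR1HI, and 15.2% and 17.6% in BaP. Basophil markers were present in all groups, with 11 of 12 at a TPM of 1 or more in both MAR1INT libraries and 12 of 12 in both MAR1HI and both BaP libraries. In these bulk samples, fewer cells of a type and less RNA per cell cannot be told apart. Some levels are uncertain. Psma3, Psma4, Psmc3ip, Psmd1 and Psme1 overlap another listed gene on the other strand and Psma6, Psmb5 and Psme2b one on the same strand, and the strand setting is not given in the sources used here. For Psma6 the deposited FPKM was 9.61 times, and for Psma7 1.61 times, what the library's lowest ratio of FPKM to coverage gives. This affects the level of these genes against other genes far more than their changes between libraries, where the factor stayed between 9.61 and 9.62 and between 1.61 and 1.67.

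Proteasome transcripts were less abundant in MAR1INT. The 49 proteasome genes together took 4170 ± 132 TPM (a level scaled by transcript length and by the total of its library) in MAR1INT, against 6511 ± 633 in MAR1HI and 6155 ± 910.4 in BaP (SD, n = 2 libraries each). The summed level was 4263 and 4077 TPM in the MAR1INT libraries, 6063 and 6958 in MAR1HI, and 6799 and 5512 in BaP, so that MAR1INT did not overlap either group. The gap was made mainly of the standard core and cap, that is the alpha ring, structural beta, constitutive catalytic, ATPase and non-ATPase genes. Their 31 genes summed to 3113 ± 87.9 TPM in MAR1INT, 5160.4 ± 499 in MAR1HI and 4982 ± 798 in BaP. The immunoproteasome catalytic genes summed to 236 ± 13.7 TPM in MAR1INT, 278 ± 30.6 in MAR1HI and 248 ± 16.9 in BaP.

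Gene by gene, 50 of the 51 members reached the filter of 1 TPM in at least 2 libraries and were tested with limma on log2(TPM + 1), with a gene called at a Benjamini-Hochberg adjusted p under 0.05 over the 11337 genes tested. In MAR1INT against MAR1HI 16 of the 50 (32%) were lower, beside 14.5% of all genes, and 0 were higher, beside 2.29%. In MAR1INT against BaP 15 of the 50 (30%) were lower, beside 20.4% of all genes, and 0 were higher, beside 11.1%. With no adjustment, 29 members had a p under 0.05 against MAR1HI (30.8% of all genes) and 24 against BaP (42.9% of all genes), and all of these members were on the lower side. Both contrasts rest on the same MAR1INT libraries, and 9 members were called in both. The median member changed by -0.72 (log2) against MAR1HI and by -0.61 against BaP, while the median of all genes tested changed by -0.36 and -0.16. Log2 changes were negative for 47 of 50 members against MAR1HI (69.7% of all genes) and for 45 of 50 against BaP (56.4% of all genes). Both MAR1INT libraries lay below both MAR1HI libraries in 39 of 50 members (42.2% of all genes), and below both BaP libraries in 37 of 50 (39.1%). Both lay above the MAR1HI libraries in 0 of 50 members (12.7% of all genes) and above the BaP libraries in 3 of 50 (29.7%), which were Psmb10, Psme4 and Psmf1. An F test over the 3 groups called 18 of the 50 members, beside 26.6% of all genes.

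These counts rested on single libraries. Against MAR1HI, the members called lower numbered 0 without MAR1HI replicate 2 (1.86% of all genes then), 4 without MAR1HI replicate 1 (4.75%), and 7 without BaP replicate 1 or replicate 2 (9.63% and 9.67%), whose absence only changes the pooled spread. Psmb4, Psmd14, Psme2 and Psmg2 remained called without each library other than MAR1HI replicate 2. Against BaP the count was 2 of 50 (Psmc3ip and Psmg2) without BaP replicate 1, a share of 4% and below the 9.73% of all genes, and 9 of 50 without BaP replicate 2, 18% beside 11.1% of all genes. The negative sign was kept more widely. All 31 standard core and cap genes had a negative log2 change in both contrasts, and 30 of the 31 did so against MAR1HI with median-of-ratios scaling. Against MAR1HI all 31 stayed negative without any 1 library, and against BaP 29 were negative without BaP replicate 1, 28 without MAR1INT replicate 2, and 31 without any of the other 4.

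**Figure D1:**
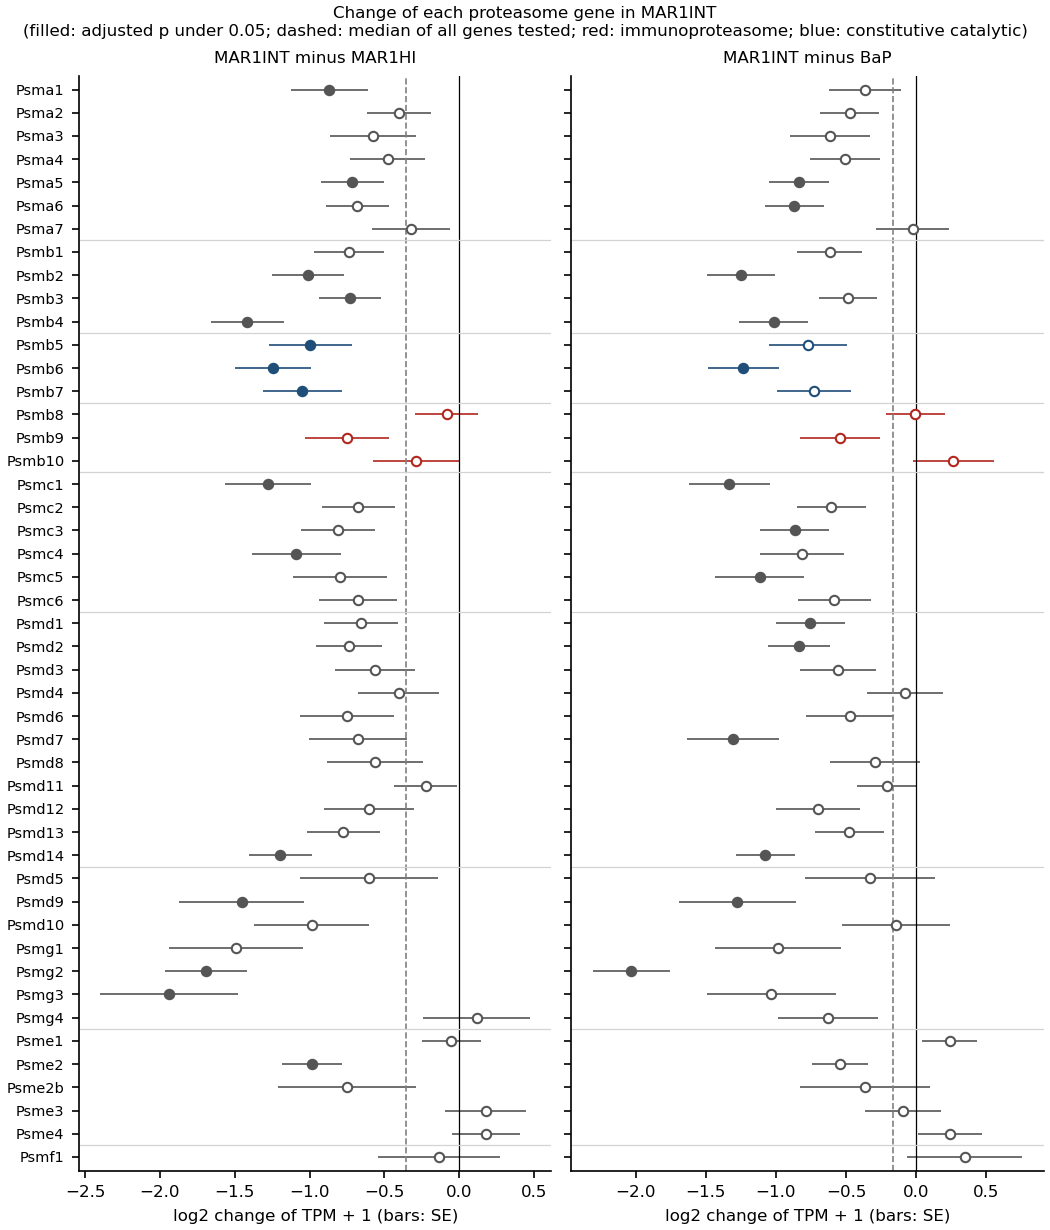
Log2 change of TPM + 1 of 47 proteasome genes in MAR1INT minus MAR1HI (left) and MAR1INT minus BaP (right), with the standard error as a bar, genes grouped by role from alpha ring (top) to regulator (bottom). Filled points passed an adjusted p under 0.05, the dashed line is the median of all genes tested (-0.36 and -0.16), and the constitutive catalytic genes (blue) lie left of the immunoproteasome genes Psmb8 and Psmb10 (red).

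The constitutive catalytic genes stood lowest in MAR1INT. Psmb5, which gives the chymotrypsin-like activity, had 24.6 and 30.0 TPM in the MAR1INT libraries, against 54.4 and 56.0 TPM in MAR1HI and 53.4 and 41.6 TPM in BaP. Psmb6, the caspase-like subunit, had 43.7 and 33.4 TPM in MAR1INT, against 92.2 and 91.4 TPM in MAR1HI and 101 and 82.1 TPM in BaP. Psmb7, the trypsin-like subunit, had 91.9 and 69.7 TPM in MAR1INT, 138 and 201 TPM in MAR1HI, and 147 and 122 TPM in BaP. In each of these genes both MAR1INT libraries lay below all others. Of all genes 42.2% lay so below MAR1HI and 39.1% below BaP, and 14.5% were called lower against MAR1HI. Against MAR1HI all 3 were called lower, by a log2 change of -0.99 ± 0.28 for Psmb5 (SE, limma adjusted p = 0.038), -1.24 ± 0.25 for Psmb6 (adjusted p = 0.0107) and -1.05 ± 0.26 for Psmb7 (adjusted p = 0.0263). Against BaP Psmb6 was called (-1.23 ± 0.25, limma adjusted p = 0.00607), while Psmb5 (-0.77, adjusted p = 0.0602) and Psmb7 (-0.73, adjusted p = 0.0618) were not. Each of the 3 calls against MAR1HI was lost when either MAR1HI library was left out, and those of Psmb5 and Psmb7 also when either BaP library was left out. The call of Psmb5 was further lost without MAR1INT replicate 1 and that of Psmb7 without MAR1INT replicate 2, so that each was kept in 1 of 6 such fits. Against BaP the call of Psmb6 was lost without BaP replicate 1.

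The immunoproteasome counterparts were not called in any contrast. Psmb8, which replaces Psmb5, had 183 and 159 TPM in MAR1INT, 173 and 188 TPM in MAR1HI, and 188 and 156 TPM in BaP, so that the groups overlapped throughout. Its log2 change was -0.08 ± 0.21 against MAR1HI (limma adjusted p = 0.831) and -0.01 ± 0.21 against BaP (adjusted p = 0.988), values whose sign depended on the scaling or on the libraries used. Psmb10, which replaces Psmb7, had 32.2 and 29.4 TPM in MAR1INT, 33.6 and 42.3 TPM in MAR1HI, and 24.0 and 26.9 TPM in BaP. Its MAR1INT libraries thus lay between the other groups. The log2 change was -0.29 ± 0.29 against MAR1HI (limma adjusted p = 0.546, and 0.01 after quantile normalization) and 0.27 ± 0.29 against BaP (adjusted p = 0.52).

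Psmb9, which replaces Psmb6, was nearer to the constitutive genes. It had 30.9 and 38.5 TPM in MAR1INT, against 49.6 and 69.5 TPM in MAR1HI and 48.0 and 53.7 TPM in BaP, with both MAR1INT libraries below the other 4. The log2 change of Psmb9 was -0.75 ± 0.28 against MAR1HI (limma adjusted p = 0.104) and -0.54 ± 0.28 against BaP (adjusted p = 0.174). On FPKM in place of TPM it was called lower in both contrasts (limma adjusted p = 0.0428 and 0.0234). After quantile normalization 1 of the immunoproteasome genes was called lower against BaP and 0 against MAR1HI. Over the mean of the 6 libraries the catalytic genes stood in the order Psmb8 (174 TPM), Psmb7 (128 TPM), Psmb6 (74.0 TPM), Psmb9 (48.4 TPM), Psmb5 (43.3 TPM) and Psmb10 (31.4 TPM). Over the 6 libraries the ranges of all neighbours in this order overlapped. The order held for the means of MAR1HI and of BaP, while in MAR1INT Psmb10 (30.8 TPM) stood above Psmb5 (27.3 TPM).

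**Figure D2:**
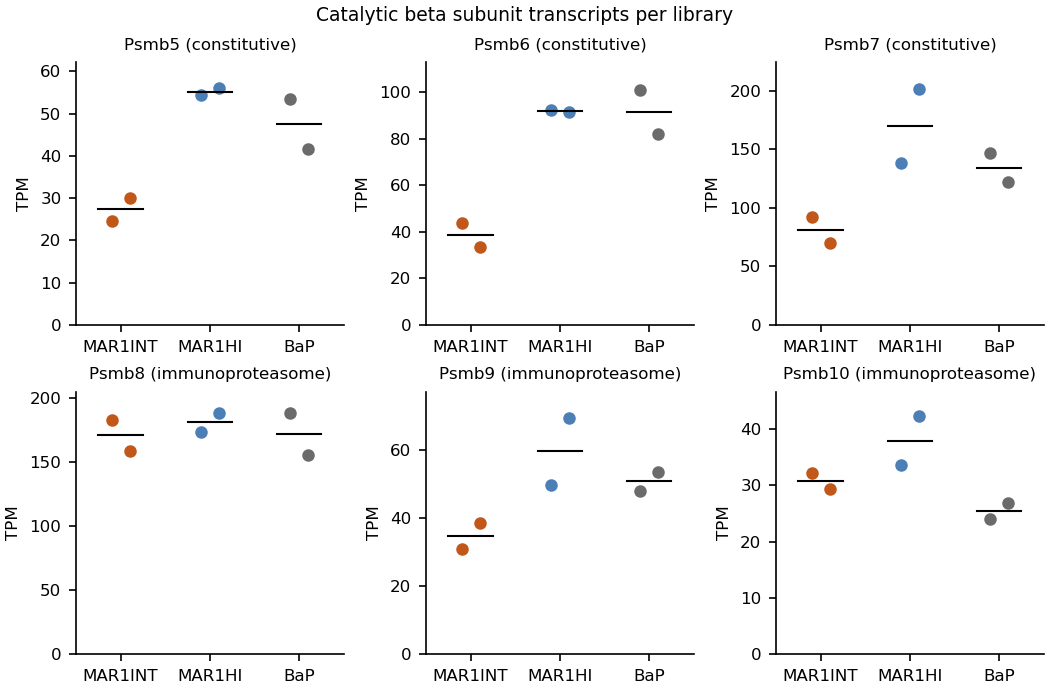
TPM of the constitutive catalytic genes Psmb5, Psmb6 and Psmb7 (top) and of the immunoproteasome genes Psmb8, Psmb9 and Psmb10 (bottom) in each library of MAR1INT, MAR1HI and BaP, with the group mean as a line. All axes start at 0. The MAR1INT points are the lowest in the top row and for Psmb9 and overlap the other groups for Psmb8.

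A ratio of 2 genes within a library does not depend on scaling by 1 factor per library, though quantile normalization can change it. Psmb8 was 7.43 and 5.28 times as abundant as Psmb5 in MAR1INT, against 3.19 and 3.36 times in MAR1HI and 3.52 and 3.74 times in BaP. The ratio of Psmb10 to Psmb7 was 0.350 and 0.421 in MAR1INT, 0.244 and 0.210 in MAR1HI, and 0.164 and 0.221 in BaP. For both, the MAR1INT libraries lay above the other 4. The ratio of Psmb9 to Psmb6 was 0.708 and 1.15 in MAR1INT, 0.538 and 0.761 in MAR1HI, and 0.475 and 0.653 in BaP, so that MAR1INT overlapped MAR1HI.

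On the log2 scale the Psmb8 to Psmb5 ratio was higher in MAR1INT by 0.94 ± 0.25 than in MAR1HI and by 0.79 ± 0.25 than in BaP (SE, n = 2 libraries a group). For Psmb10 to Psmb7 the difference was 0.76 ± 0.17 against MAR1HI and 1.01 ± 0.26 against BaP. For Psmb9 to Psmb6 it was 0.50 ± 0.43 against MAR1HI and 0.70 ± 0.42 against BaP. With 2 libraries a group, 0.333 is the smallest two-sided p that exact permutation allows. That value was reached in 6 of the 9 comparisons (3 ratios in 3 contrasts, Benjamini-Hochberg adjusted p = 0.5), and Psmb9 to Psmb6 against MAR1HI had an exact p = 0.667 (adjusted p = 0.667). Without 1 library, the Psmb9 to Psmb6 difference ranged from 0.15 (without MAR1INT replicate 2) to 0.85 against MAR1HI and from 0.35 to 1.05 against BaP. The range for Psmb8 to Psmb5 was 0.69 to 1.18 against MAR1HI and 0.54 to 1.03 against BaP.

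Taken as a share of the summed TPM of the 6 catalytic genes, the immunoproteasome genes made up 60.6% and 63.0% in MAR1INT, 47.4% and 46.3% in MAR1HI, and 46.4% and 49.0% in BaP. Without Psmb8 and Psmb5 the share was 31.8% and 39.7% in MAR1INT, 26.6% and 27.7% in MAR1HI, and 22.5% and 28.3% in BaP. In both forms the MAR1INT libraries stood above the other 4.

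**Figure D3:**
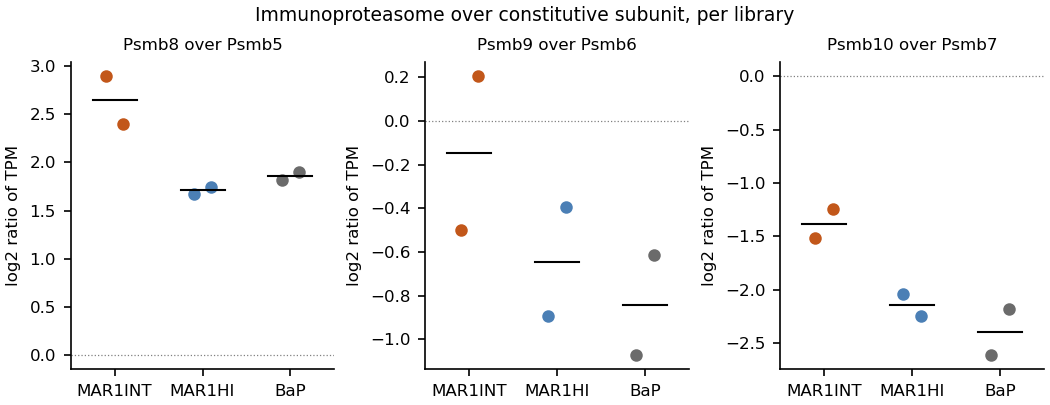
Log2 ratio of the TPM of each immunoproteasome gene to that of the constitutive gene it replaces, in each library of MAR1INT, MAR1HI and BaP, with group means as lines and equal abundance as a dotted line. MAR1INT lies highest for Psmb8 over Psmb5 and Psmb10 over Psmb7 and overlaps MAR1HI for Psmb9 over Psmb6.

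Among the activators, Psme2 was lower in MAR1INT than in MAR1HI and no other gene was called. Psme1 and Psme2 encode the subunits of PA28, an interferon-induced ring often found with the immunoproteasome, and lie 5912 bases apart on chromosome 14 (55578494 to 55581527 and 55587440 to 55591101). Psme1 had 401 and 356 TPM in MAR1INT, 379.7 and 403 TPM in MAR1HI, and 358 and 286 TPM in BaP. Psme2 had 139 and 148 TPM in MAR1INT, against 261 and 310.5 TPM in MAR1HI and 213 and 206 TPM in BaP. MAR1INT overlapped both other groups for Psme1, which was not called (log2 change -0.05 ± 0.20 against MAR1HI and 0.24 ± 0.20 against BaP). Psme2 was lower than in MAR1HI (-0.98 ± 0.20, limma adjusted p = 0.0106), a call lost without MAR1HI replicate 2, and was not called against BaP (-0.54 ± 0.20, adjusted p = 0.0658). The ratio of Psme1 to Psme2, looked at after their values were seen, was 2.89 and 2.40 in MAR1INT, 1.46 and 1.30 in MAR1HI, and 1.68 and 1.39 in BaP. Psme2b, a near copy of Psme2 whose reads may be split with it, stood between 5.10 and 6.45 TPM in MAR1INT, 7.94 and 13.3 TPM in MAR1HI, and 5.56 and 10.5 TPM in BaP, without a call.

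The other activators and the inhibitor of the core were not called. Psme3, a nuclear activator that works without ubiquitin, had 54.7 and 71.6 TPM in MAR1INT, 47.9 and 63.6 TPM in MAR1HI, and 71.4 and 62.6 TPM in BaP. Psme4, which encodes the large activator PA200, had 103 and 99.4 TPM in MAR1INT, 80.0 and 100.01 TPM in MAR1HI, and 89.4 and 82.0 TPM in BaP. Psmf1, an inhibitor of the core in cell-free assays, had 5.51 and 6.33 TPM in MAR1INT, 5.69 and 7.58 TPM in MAR1HI, and 4.17 and 4.70 TPM in BaP. Both MAR1INT libraries lay above both BaP libraries for Psme4 and Psmf1. None of the 3 was called, with log2 changes of 0.18, 0.18 and -0.13 against MAR1HI and -0.09, 0.24 and 0.35 against BaP for Psme3, Psme4 and Psmf1 in that order. Of the 5 activator genes 1 was lower against MAR1HI (20%, beside 14.5% of all genes) and 0 against BaP (beside 20.4%). The medians were -0.05 and -0.09.

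**Figure D4:**
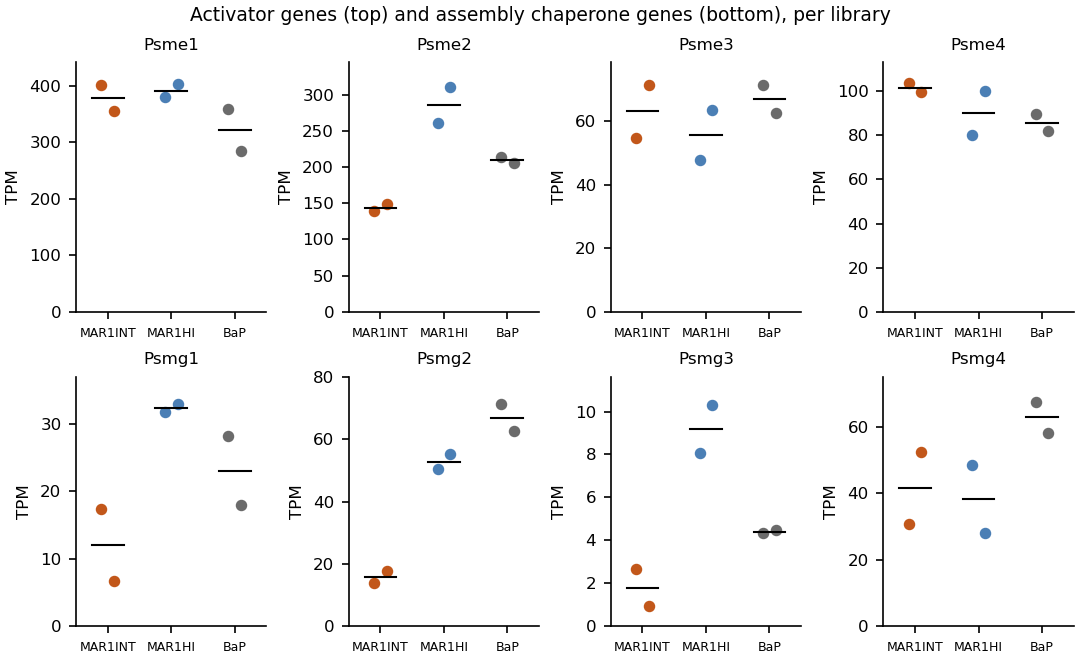
TPM of the activator genes Psme1 to Psme4 (top) and of the assembly chaperone genes Psmg1 to Psmg4 (bottom) in each library, with group means as lines and axes from 0. Psme2, Psmg1, Psmg2 and Psmg3 are lowest in both MAR1INT libraries, whereas MAR1INT overlaps both other groups for Psme1 and Psme3.

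The alpha rings form the ends of the barrel and gate its entry. Of their 7 genes 2 were lower in MAR1INT against MAR1HI (Psma1 and Psma5) and 2 against BaP (Psma5 and Psma6), with medians of -0.57 and -0.51. That is 28.6% in each contrast, beside 14.5% and 20.4% of all genes. Psma5 was called in both, at 170.2 and 171 TPM in MAR1INT, against 279.8 and 281 TPM in MAR1HI and 356 and 262 TPM in BaP. Its log2 change was -0.71 ± 0.21 against MAR1HI (limma adjusted p = 0.0476) and -0.83 ± 0.21 against BaP (adjusted p = 0.0159). The call against MAR1HI was lost without any 1 library.

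Psma1 had 153 and 112 TPM in MAR1INT, against 195 and 294 TPM in MAR1HI and 172 and 165 TPM in BaP. Its log2 change against MAR1HI, -0.87 ± 0.26 (limma adjusted p = 0.0482), was -0.57 without MAR1HI replicate 2. Psma6, whose level against other genes is uncertain, had 253 and 288 TPM in MAR1INT, against 446 and 421 TPM in MAR1HI and 577 and 422 TPM in BaP (log2 change -0.87 ± 0.21 against BaP, adjusted p = 0.0131). MAR1INT stood lowest in both libraries for both genes. Among the ring genes that were not called, Psma2 had 255 and 299 TPM in MAR1INT, 396 and 337 TPM in MAR1HI, and 437 and 338 TPM in BaP. Psma3 had 93.4 and 75.6 TPM in MAR1INT, 118 and 134 TPM in MAR1HI, and 169.7 and 98.7 TPM in BaP. Psma4 stood between 127 and 140.3 TPM in MAR1INT and between 156 and 223 TPM in the other libraries. Psma7 had 153 and 99.1 TPM in MAR1INT, 140.1 and 169.6 TPM in MAR1HI, and 134 and 117 TPM in BaP, and it was the ring gene in which MAR1INT overlapped both other groups.

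The structural beta genes encode beta ring subunits with no active site. Of these 4 genes 3 were lower against MAR1HI (Psmb2, Psmb3 and Psmb4), 75% beside 14.5% of all genes. Against BaP 2 were lower (Psmb2 and Psmb4), 50% beside 20.4% of all genes. The medians were -0.87 and -0.82. All MAR1INT libraries lay below all others in all 4, beside 42.2% of all genes below MAR1HI and 39.1% below BaP. Psmb4 had 48.1 and 50.9 TPM in MAR1INT, against 118 and 152 TPM in MAR1HI and 112 and 91.1 TPM in BaP. Its log2 change was -1.42 ± 0.24 against MAR1HI (limma adjusted p = 0.00476) and -1.02 ± 0.24 against BaP (adjusted p = 0.0123). Psmb2 had 117 and 78.9 TPM in MAR1INT, against 191 and 198 TPM in MAR1HI and 249.96 and 211 TPM in BaP (-1.01 ± 0.24, adjusted p = 0.0218, and -1.25 ± 0.24, adjusted p = 0.00453). Psmb3, the most abundant member by the mean of all libraries (488 TPM), though below Psme1 in MAR1INT, had 387 and 332 TPM in MAR1INT, against 588 and 603 TPM in MAR1HI and 583 and 432 TPM in BaP. Its change was called against MAR1HI (-0.73 ± 0.21, limma adjusted p = 0.0404) and not against BaP (-0.49, adjusted p = 0.103). Psmb1, not called, had 176 and 132 TPM in MAR1INT, 227 and 285 TPM in MAR1HI, and 258 and 212 TPM in BaP.

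The ATPases of the cap unfold substrates and feed them into the core. Both MAR1INT libraries lay below the other 4 in all 6 ATPase genes, beside 42.2% of all genes below MAR1HI and 39.1% below BaP. Against MAR1HI 2 were called lower (Psmc1 and Psmc4), 33.3% beside 14.5% of all genes. Against BaP 3 were (Psmc1, Psmc3 and Psmc5), 50% beside 20.4% of all genes. The median log2 changes were -0.80 and -0.84. Psmc1 had 63.6 and 40.9 TPM in MAR1INT, against 116 and 135 TPM in MAR1HI and 155 and 109 TPM in BaP, and was called in both contrasts (-1.28 ± 0.29, limma adjusted p = 0.0168, and -1.33 ± 0.29, adjusted p = 0.0076). Psmc4 had 44.1 and 26.8 TPM in MAR1INT, against 67.2 and 82.0 TPM in MAR1HI and 63.3 and 59.3 TPM in BaP (-1.09 ± 0.30 against MAR1HI, adjusted p = 0.0359). Psmc3 had 66.1 and 77.4 TPM in MAR1INT, against 112 and 141 TPM in MAR1HI and 149.7 and 115 TPM in BaP (-0.87 ± 0.24 against BaP, adjusted p = 0.025). MAR1HI and BaP overlapped for Psmc1 and Psmc3, and MAR1HI was highest for Psmc4.

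Psmc5 had 31.8 and 54.1 TPM in MAR1INT, 64.2 and 82.5 TPM in MAR1HI, and 106 and 78.1 TPM in BaP. Its log2 change against BaP was -1.12 ± 0.32 (limma adjusted p = 0.0251) and -0.74 without MAR1INT replicate 1. The uncalled ATPases were Psmc2, between 77.1 and 99.0 TPM in MAR1INT, and Psmc6, between 106 and 155 TPM in MAR1INT. In the MAR1HI and BaP libraries Psmc2 stood between 117 and 154 TPM and Psmc6 between 164 and 226 TPM.

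The non-ATPase subunits recognise ubiquitin, remove it and scaffold the cap. Of 11 genes 1 was lower against MAR1HI (Psmd14), 9.09% and below the 14.5% of all genes. Against BaP 4 were lower (Psmd1, Psmd2, Psmd7 and Psmd14), 36.4% beside 20.4% of all genes. The medians were -0.66 and -0.56. Psmd14, the enzyme that cuts ubiquitin chains off substrates as they enter, had 85.6 and 91.0 TPM in MAR1INT, against 183 and 226 TPM in MAR1HI and 193 and 181 TPM in BaP. Its log2 changes were -1.19 ± 0.21 (limma adjusted p = 0.00562) and -1.07 ± 0.21 (adjusted p = 0.00498). Psmd7, its partner in the lid, had 22.3 and 20.0 TPM in MAR1INT, 26.2 and 44.8 TPM in MAR1HI, and 49.5 and 58.0 TPM in BaP (-1.30 ± 0.33 against BaP, adjusted p = 0.015). MAR1INT lay below the other groups for both genes, and both BaP libraries were highest for Psmd7.

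Psmd1 and Psmd2 encode the large scaffolds of the base. Psmd1 had 64.3 and 68.8 TPM in MAR1INT, 97.1 and 114 TPM in MAR1HI, and 132 and 96.0 TPM in BaP (-0.75 ± 0.25 against BaP, limma adjusted p = 0.0437, lost without any 1 library). Psmd2 had 86.8 and 101 TPM in MAR1INT, 141 and 173 TPM in MAR1HI, and 178 and 159 TPM in BaP (-0.84 ± 0.22 against BaP, adjusted p = 0.0189). Of the 7 uncalled genes of this class, Psmd13 was the most abundant, with 87.3 and 123 TPM in MAR1INT, 159 and 200.2 TPM in MAR1HI, and 153 and 137 TPM in BaP. Psmd3 was the least abundant, with 33.9 and 29.0 TPM in MAR1INT, 42.9 and 51.1 TPM in MAR1HI, and 45.7 and 47.7 TPM in BaP. Psmd11 varied least, between 99.8 and 102 TPM in MAR1INT and between 115 and 121 TPM elsewhere. Psmd4, a ubiquitin receptor, had 54.5 and 40.9 TPM in MAR1INT, 57.7 and 68.1 TPM in MAR1HI, and 54.6 and 45.7 TPM in BaP, and Psmd6, Psmd8 and Psmd12 were likewise not called.

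Assembly factors held the largest changes among proteasome genes. Of 7 genes 3 were lower against MAR1HI (Psmd9, Psmg2 and Psmg3), 42.9% beside 14.5% of all genes. Against BaP 2 were lower (Psmd9 and Psmg2), 28.6% beside 20.4% of all genes. The medians were -1.45 and -0.98. Psmg2, which pairs with the product of Psmg1 to start the alpha ring, had 13.9 and 17.6 TPM in MAR1INT, against 50.4 and 55.2 TPM in MAR1HI and 71.4 and 62.6 TPM in BaP. Its log2 change was -1.69 ± 0.28 against MAR1HI (limma adjusted p = 0.00375) and -2.03 ± 0.28 against BaP (adjusted p = 0.000781), and the call against BaP was kept without any 1 library. Psmg1 had 17.4 and 6.66 TPM in MAR1INT, 31.8 and 33.0 TPM in MAR1HI, and 28.2 and 17.9 TPM in BaP, without a call. Psmg3 and Psmg4 form the other chaperone pair of the ring. Psmg3 had 2.64 and 0.924 TPM in MAR1INT, against 8.08 and 10.3 TPM in MAR1HI and 4.33 and 4.49 TPM in BaP, and was called against MAR1HI (-1.94 ± 0.46, adjusted p = 0.0214). Psmg4 had 30.6 and 52.4 TPM in MAR1INT, 48.4 and 28.0 TPM in MAR1HI, and 67.5 and 58.0 TPM in BaP. Unlike its partner, it had overlapping MAR1INT and MAR1HI libraries.

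Psmd5, Psmd9 and Psmd10 encode chaperones of the cap base. Psmd9 had 11.5 and 5.66 TPM in MAR1INT, against 21.3 and 27.1 TPM in MAR1HI and 25.1 and 17.7 TPM in BaP. It was called in both contrasts (-1.45 ± 0.42, limma adjusted p = 0.0413, and -1.27 ± 0.42, adjusted p = 0.0429), but its change against BaP was -0.82 without MAR1INT replicate 2. Psmd5 and Psmd10 were not called. Psmd5 stood between 13.01 and 30.6 TPM in MAR1INT, 23.6 and 40.6 TPM in MAR1HI, and 19.9 and 32.4 TPM in BaP. Psmd10 stood between 15.5 and 26.7 TPM in MAR1INT, 33.5 and 50.8 TPM in MAR1HI, and 18.3 and 27.7 TPM in BaP.

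**Figure D5:**
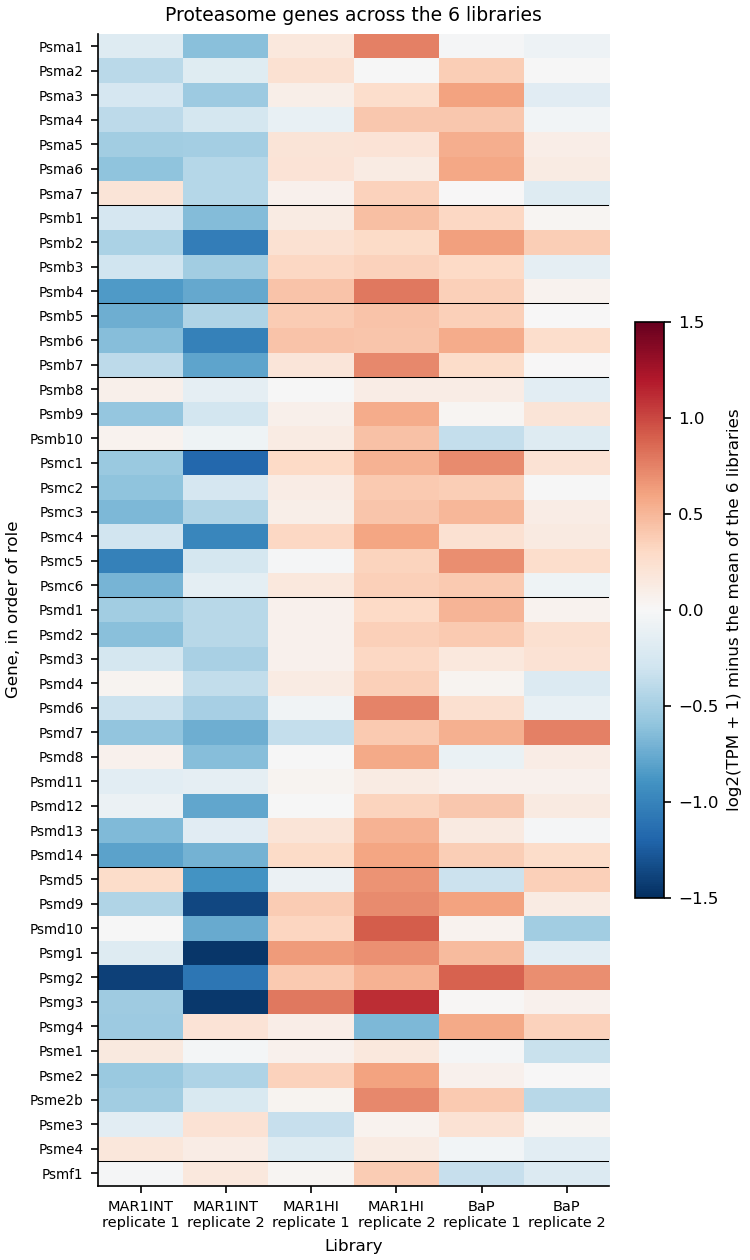
Heat map of log2(TPM + 1) minus the mean of the 6 libraries for 47 proteasome genes (rows, in order of role, with lines between roles) in each library (columns). Blue is below and red above the gene's own mean: the MAR1INT columns are blue for most core, cap and assembly genes and near white for Psmb8, Psmb10 and Psme1, and MAR1HI replicate 2 and BaP replicate 1 are red in most of them.

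Tissue-specific subunits were at or near 0. Psmb11, the catalytic subunit of the thymus, was listed at 0 in 5 libraries and at 0.0165 TPM in BaP replicate 2, and it was not tested. Psma8, the alpha subunit of the testis, was listed at 0 in both MAR1INT libraries, at 0 and 1.36 TPM in MAR1HI, and at 1.85 and 0.269 TPM in BaP. Psmc3ip, which is no proteasome gene, was listed at 0 and at 0.821 TPM in MAR1INT, against 8.03 and 5.30 TPM in MAR1HI and 12.9 and 8.42 TPM in BaP. It was called lower in both contrasts (-2.48 ± 0.48, limma adjusted p = 0.00869, and -3.08 ± 0.48, adjusted p = 0.00155). Psme3ip1 stood between 11.0 and 26.0 TPM over all libraries and was not called.

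Between MAR1HI and BaP no member was called in either direction, beside 1.83% of all genes called higher and 0.662% called lower in MAR1HI, and 0 members had an unadjusted p under 0.05 in limma (17.5% of all genes). MAR1HI libraries both lay below the BaP libraries in 5 of 50 members (15.3% of all genes) and both above in 16 (38.2%), and log2 changes were negative in 18 of 50 (32.6% of all genes). The median member changed by 0.11 (log2) and the median of all genes by 0.24. That sign depended on scaling, since the median member changed by -0.12 on FPKM, by -0.13 when libraries were quantile normalized, and by -0.20 when they were scaled by median-of-ratios factors. The most positive change was that of Psmg3 (0.91 ± 0.46, limma adjusted p = 0.35), at 8.08 and 10.3 TPM in MAR1HI and 4.33 and 4.49 TPM in BaP, and the most negative that of Psmg4 (-0.75 ± 0.36, adjusted p = 0.32). Psmb10 had 33.6 and 42.3 TPM in MAR1HI, above 24.0 and 26.9 TPM in BaP, also without a call (0.55 ± 0.29, adjusted p = 0.365). For the ratios the differences of MAR1HI from BaP were -0.15 ± 0.06 for Psmb8 to Psmb5, 0.20 ± 0.34 for Psmb9 to Psmb6 and 0.25 ± 0.24 for Psmb10 to Psmb7 (SE, log2).

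Genes that work with the proteasome but lack its name pattern were listed separately. Of 5 further subunits and assembly or transport factors, Sem1, a small lid subunit, was lower in MAR1INT in both contrasts. It had 161 and 259 TPM in MAR1INT, against 494 and 462 TPM in MAR1HI and 409 and 335 TPM in BaP (-1.22 ± 0.25, limma adjusted p = 0.0106, and -0.86 ± 0.25, adjusted p = 0.0277). Pomp, the maturation factor that helps to close the core particle, had 116 and 94.9 TPM in MAR1INT, 164 and 186 TPM in MAR1HI, and 218 and 153 TPM in BaP, and was called against BaP (-0.79 ± 0.24, adjusted p = 0.0347). Adrm1, a ubiquitin receptor of the cap, had 109 and 94.5 TPM in MAR1INT, 92.4 and 104 TPM in MAR1HI, and 105 and 102 TPM in BaP. It was not called, nor were Ecpas and Akirin2. Of these 5 genes 20% were thus lower against MAR1HI and 40% against BaP, beside 14.5% and 20.4% of all genes. Of 11 associated enzymes and shuttle factors, Usp14, a deubiquitinase docked on the cap, was lower against MAR1HI (-1.35 ± 0.39, limma adjusted p = 0.0419). That is 9.09%, beside 14.5% of all genes. Against BaP 0 of these 11 were called, where 20.4% of all genes were lower. Of 4 regulators of proteasome gene transcription (Nfe2l1, Nfe2l2, Ddi2 and Ngly1), 0 were called in either contrast. Of all genes 14.5% were lower and 2.29% higher against MAR1HI, and 20.4% lower and 11.1% higher against BaP. Sem1 was not called against MAR1HI without either MAR1HI library. When 1 library at a time was left out, Usp14 against MAR1HI and Pomp against BaP stayed called without MAR1INT replicate 1 alone, and Sem1 against BaP without MAR1INT replicate 2 alone.

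Of the class I loading genes, the partners of the immunoproteasome in antigen presentation, most were not called. The transporter genes beside Psmb8 and Psmb9 were not called. Tap1 had 68.9 and 62.4 TPM in MAR1INT, 41.5 and 61.6 TPM in MAR1HI, and 42.9 and 58.7 TPM in BaP, and Tap2 had 140.2 and 130.1 TPM in MAR1INT, 100.3 and 130.0 TPM in MAR1HI, and 90.0 and 87.8 TPM in BaP. Both MAR1INT libraries thus stood above the other 4 for both genes, but MAR1HI replicate 2 lay close below them in each. Of all genes, 12.7% had both MAR1INT libraries above MAR1HI and 29.7% above BaP. Of the 12 genes 3 were lower against MAR1HI and 3 against BaP, all of them chaperones of the endoplasmic reticulum (Calr, Canx and Pdia3). That is 25% in each contrast, beside 14.5% and 20.4% of all genes. Calr had 250.2 and 161 TPM in MAR1INT, against 744 and 834 TPM in MAR1HI and 1587 and 1786 TPM in BaP (-1.97 ± 0.23, limma adjusted p = 0.000748, and -3.06 ± 0.23, adjusted p = 6.82e-05). It was also lower in MAR1HI than in BaP (-1.09 ± 0.23, adjusted p = 0.0436). Irf1, an interferon-induced regulator of Psmb8, Psmb9 and Tap1, had 99.2 and 74.8 TPM in MAR1INT, 52.3 and 72.5 TPM in MAR1HI, and 40.4 and 34.9 TPM in BaP, and was higher than in BaP (1.18 ± 0.28, adjusted p = 0.0118). Against MAR1HI, Calr and Canx were not called without MAR1HI replicate 2, and Pdia3 not without any 1 library. Irf1 was not called without either BaP library, and Calr was not called between MAR1HI and BaP without any 1 of their libraries.

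The summed markers of several other marrow cells differed between the groups, in some lists through 1 gene. Dendritic cell markers (10 genes) summed to between 16.1 and 25.6 TPM in MAR1INT, 61.4 and 74.1 TPM in MAR1HI, and 358 and 990.4 TPM in BaP, with Flt3, Clec9a, Xcr1 and Zbtb46 at 0 in both MAR1INT libraries and Xcr1 at 0 in MAR1HI. Eosinophil markers (7 genes) summed to between 81.5 and 228 TPM in MAR1INT, 81.2 and 119 TPM in MAR1HI, and 1137 and 2120 TPM in BaP, with Epx, Prg3 and Il5ra at 0 in MAR1INT and with Prg2 giving most of the sum in BaP (1584 and 934 TPM). Neutrophil markers (9 genes, none at 0) summed to between 3156 and 3730 TPM in MAR1INT, 3506 and 4688 TPM in MAR1HI, and 5956 and 10501 TPM in BaP. The sums of these lists were highest in BaP, and those of MAR1INT and MAR1HI overlapped for eosinophil and neutrophil markers. Not all their genes went this way. Siglecf, on the eosinophil list, had 79.5 and 110 TPM in MAR1INT, 29.5 and 44.5 TPM in MAR1HI, and 21.9 and 20.9 TPM in BaP. On the neutrophil list S100a8, S100a9, Ltf and Ngp overlapped between MAR1INT and BaP, while Elane, Mpo, Prtn3, Ctsg and Camp were lowest in both MAR1INT libraries. T and NK markers (7 genes) summed to between 34.1 and 51.5 TPM in MAR1INT, between 195.1 and 195.3 TPM in MAR1HI, and between 373 and 383 TPM in BaP, with Cd3g, Cd8a, Klrb1c and Ncr1 at 0 in MAR1INT, Cd3g at 0 in MAR1HI, and Cd3e and Cd3g at 0 in BaP. Nkg7 made up nearly all of that sum (32.3 and 51.5 TPM in MAR1INT, 194.2 and 194.1 TPM in MAR1HI, and 371 and 380.1 TPM in BaP), and the other 6 genes were at or near 0 in all groups. Mast cell markers (5 genes) summed to at most 0.449 TPM in MAR1INT, 4.89 TPM in MAR1HI and 45.1 TPM in BaP, with Mcpt4, Cma1, Tpsb2 and Mrgprb1 at 0 in MAR1INT, Mcpt4 and Mrgprb1 in MAR1HI, and Mrgprb1 in BaP. Kit carried that difference, at 0.0446 and 0.449 TPM in MAR1INT, 2.94 and 4.36 TPM in MAR1HI, and 44.9 and 38.6 TPM in BaP, although BaP was sorted as lacking c-Kit, and the other 4 genes were at or near 0. Erythroid markers (7 genes, none at 0) summed to between 1271 and 2785 TPM in MAR1INT, 103 and 631 TPM in MAR1HI, and 108 and 2378 TPM in BaP. Hba-a1 gave most of the larger sums and differed widely between duplicates. It had 1976 and 1213 TPM in MAR1INT, 14.6 and 558 TPM in MAR1HI, and 4.36 and 1661 TPM in BaP. Car1 and Car2 were lower in both MAR1INT libraries than in both MAR1HI libraries, and Alas2 was higher. Monocyte and macrophage markers (8 genes) summed to between 361 and 401 TPM in MAR1INT, 325 and 365 TPM in MAR1HI, and 501 and 549 TPM in BaP, with Spic at 0 in MAR1INT. Ms4a6c gave most of the sum in MAR1INT and MAR1HI and overlapped between all groups. Csf1r, C1qa, C1qb and Spic were highest in both BaP libraries, while Ly6c2 and F13a1 overlapped between MAR1INT and BaP. Adgre1 had 25.5 and 47.6 TPM in MAR1INT, 6.51 and 7.38 TPM in MAR1HI, and 41.6 and 24.8 TPM in BaP. Megakaryocyte and platelet markers (5 genes) summed to between 343 and 443 TPM in MAR1INT, 405 and 529.9 TPM in MAR1HI, and 256 and 267 TPM in BaP, with Pf4 at 0 in MAR1INT and Itga2b giving most of the sum in each library. B and plasma cell markers (7 genes) summed to between 14.3 and 25.9 TPM in MAR1INT, 36.2 and 40.5 TPM in MAR1HI, and 22.5 and 24.6 TPM in BaP, with Ms4a1, Pax5 and Mzb1 at 0 in MAR1INT. The part of these cells in the proteasome differences was not tested. Basophil markers (12 genes, none at 0) summed to between 12299 and 14956 TPM in MAR1INT, 18713 and 22269 TPM in MAR1HI, and 17298 and 22167 TPM in BaP. The sum was thus lowest in MAR1INT, but Mcpt8, Prss34 and Cpa3 gave most of it and the genes did not move together. Those 3, Fcer1a and Gzmb were lowest in both MAR1INT libraries. Gata2, Hdc, Il6, Csf1 and Cd200r3 were highest there. Cd200r3 had 2696 and 2342 TPM in MAR1INT, 1602 and 1576 TPM in MAR1HI, and 821 and 845 TPM in BaP. Ms4a2 lay between the other groups, and Il4 overlapped MAR1HI.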

How the data were processed

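RNA from 6 libraries was sequenced, 2 for each of MAR1INT, MAR1HI and BaP, the groups their labels give. Trimmomatic, HISAT2 and StringTie were used on the reads, with mm10 as the genome, per the submitters' processing notes. Tool versions, the annotation release and the strand setting are not given in the sources used here. Per the file headers, the authors' deposited tables hold coverage, a signal of mean read depth per base, FPKM and TPM for each gene. The TPM column was analysed. FPKM served as an alternative and coverage as a check of depth and of each gene's FPKM. No counts were used, so no counting interval is given, and precision rests on the spread between duplicates.

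Symbols came from a GRCm38.p6 RefSeq table by Entrez ID, with 24462 of 24532 IDs matched, and all 51 members overlapped their reference interval. Values of an ID listed on several lines were summed. The members and the gene lists were chosen with earlier results of these data known. Some genes of the lists are not reported here. All members could be named. Those given in every library were the catalytic, activator, Psmf1, Psma8, Psmb11 and Psmc3ip genes and all members called, and of the rest the highest and lowest of each role. The role of Psme3ip1 was set after its symbol was found.

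The test was limma (version 3.58.1, under R 4.3.3) on log2(TPM + 1), for the 11337 genes that reached 1 TPM in 2 libraries or more. It was fitted over all 6 libraries with 1 term per group and eBayes with a trend (residual degrees of freedom 3, prior ones 6.39 in the median), two-sided, with Benjamini-Hochberg adjustment over all genes tested. A change on this scale understates that of genes at a low level. Alternatives were other pseudocounts (0.1 and 5), other filters on low values, FPKM, quantile normalization, median-of-ratios scaling, a replicate block, a fit without the trend, a fit of only the 2 groups compared, and leaving out each library. In such a fit the lone library left in a group is assumed to vary like the other groups. Ratios of genes were compared with exact permutation tests over libraries. Tables and figures were made with Python 3.11.15, pandas 2.3.3, numpy 2.4.6, scipy 1.17.1 and matplotlib 3.10.9.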

Additional observations from a re-analysis of the deposited data

How the results depend on the processing

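The Psmb9 to Psmb6 difference between MAR1HI and BaP was -0.05 without MAR1HI replicate 2 and -0.03 without BaP replicate 1. With 2 libraries a group, leaving 1 out says little on the stability of a ratio. No member called lower turned sign. The number of proteasome genes called did depend on the processing. Against MAR1HI, 16 members were lower as reported (14.5% of all genes), 5 with no filter on low values (2.75%), 6 without limma's trend (12%, near the 12.4% of all genes), 8 with only the compared groups (10.2%), 9 with median-of-ratios scaling (10.8%), and 0 to 18 when 1 library was left out. Against BaP, 15 were lower as reported (20.4% of all genes), 9 with no filter (8.397%), 8 without the trend (16%, below the 18.9% of all genes), 32 with FPKM (27.8%), 29 after quantile normalization (16.6%, where 1 member, Psmf1, was higher), and 2 to 17 when 1 library was left out. The F test called 18 members as reported (26.6% of all genes), 5 with no filter, 7 without the trend, 11 with a pseudocount of 0.1 and 11 with the replicate block. The shares of all genes in these other F tests are not given here, so their counts are not set against a background. The cause of these differences was not tested. More genes were tested with no filter, and the fits with 1 library left out held fewer libraries. The median of all genes in MAR1INT minus MAR1HI, in MAR1INT minus BaP and in MAR1HI minus BaP changed by -0.36, -0.16 and 0.24 in TPM, -0.32, -0.34 and 0.03 in FPKM, 0.11, 0.11 and 0.02 when quantile normalized, and -0.11, -0.17 and -0.04 by median-of-ratios scaling. Relative to it the median member lay between -0.67 and -0.33 against MAR1HI and between -0.82 and -0.45 against BaP over these scalings. Among all genes called, the share that was higher was, in the same order, 13.7%, 35.3% and 73.4% in TPM, 16.5%, 27.8% and 57.3% in FPKM, 45.3%, 55.1% and 56.9% when quantile normalized, and 39.5%, 41.2% and 59.9% by median-of-ratios scaling.

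Some uncalled log2 changes turned sign. Against MAR1HI these were Psmb10 after quantile normalization (0.00596), Psmb8 (0.21) and Psme1 (0.24) with median-of-ratios scaling, and Psmf1 when quantile normalized (0.53) or scaled by median-of-ratios factors (0.12). Without 1 library, the range against MAR1HI was -0.185 to 0.0176 for Psmb8, -0.137 to 0.0354 for Psme1, -0.0223 to 0.378 for Psme3 and -0.313 to 0.0452 for Psmf1. Against BaP, Psme1 was -0.000883 with FPKM, and without 1 library the range was -0.141 to 0.131 for Psmb8 and -0.286 to 0.0965 for Psme3. Of the other gene values under the alternatives, 583 kept direction and side of the threshold, 154 fell short of it and 17 newly passed it.

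The groups share replicate numbers. Same-numbered libraries deviated together with a correlation of -0.06 for MAR1INT with MAR1HI, -0.09 for MAR1INT with BaP and 0.15 for MAR1HI with BaP. The labels give only the number, and such correlations cannot tell whether same-numbered libraries shared animals or a sort. With the replicate block 13 members (26%) were lower against MAR1HI, beside 13.7% of all genes, and 12 of them were also called without it. Against BaP 14 members (28%) were lower, beside 19.9% of all genes, all 14 also called without it. Between MAR1HI and BaP 0 members were called, where 0.573% of all genes were lower.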
